A study of Mus musculus with 27 samples.

Results

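Havcr1, Lcn2, Clu, Spp1 and Vcam1 are 5 genes whose products are used as markers of tubular injury, either on the surface of tubular cells or secreted into urine and blood. They were taken by symbol from the expression table, where all 5 were found among 19392 genes, and all 5 passed the filter on low values that left 18188 genes for testing. The question here was how their transcripts followed the length of ischemia. The mice were wild-type C57BL/6, and the ages and sexes are not given in the sources used here. In the uIRIx model the right kidney was removed and the pedicle of the left kidney was clamped on a 37°C plate, and the left kidney was taken 24 h after reperfusion. The groups were clamp times of 0, 16, 18, 20, 22, 24, 26, 28 and 30 min, with 3 kidneys from 3 different mice in each of the 9 groups and 27 kidneys in all. The 0 min group was the sham group, and its sample titles do not say whether the right kidney was removed. The paper lists 0 min among the ischemia times of the model and does not describe the sham surgery apart. Nephrectomy may therefore have been shared by every group, or it may differ between sham and clamped mice.

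The tubular epithelium of a healthy kidney makes little of some of these proteins, such as Havcr1, and injured or dedifferentiated tubular cells switch them on. Transcripts of Spp1 and Clu were already abundant in the 0 min kidneys here. Havcr1 (KIM-1) is a membrane glycoprotein that binds phosphatidylserine, lets tubular cells engulf dying neighbours, and is shed into urine. Lcn2 (NGAL) is a secreted lipocalin that binds iron-loaded siderophores and is made by injured tubules and by neutrophils. Clu (clusterin) is a secreted chaperone, Spp1 (osteopontin) is a secreted phosphoprotein that binds integrins and CD44, and Vcam1 is an adhesion molecule of activated endothelium and of injured proximal tubule cells that binds the integrin made of Itga4 and Itgb1.

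On GRCm38 with the GENCODE vM21 annotation, Havcr1 lies on the plus strand at chr11:46735080-46779578, Lcn2 on the minus strand at chr2:32384633-32388252, and Clu on the plus strand at chr14:65968483-65981547. Spp1 lies on the plus strand at chr5:104435118-104441050 and overlaps Gm42793 on the same strand. Vcam1 lies on the minus strand at chr3:116109949-116129688 and overlaps the antisense gene Gm43109. Whether the counting used strand is not given in the sources used here, so reads of Vcam1 and Gm43109 could not be told apart, and those of Spp1 and Gm42793 share a strand. Havcr1, Lcn2 and Spp1 had entries among the RefSeq promoter windows of GRCm38.p6, which run from 250 bases before to 50 bases after a start site. The parts of 3 windows that lie outside annotated exons are shown because these 3 genes had the largest log2 changes of the 5 at 30 min. They are written 5′ to 3′ on the gene's strand, with matches to the searched motifs in capitals. The Havcr1 stretch is chr11:46750261-46750510 on the plus strand, inside the annotated gene and before the second of its 3 RefSeq start sites. The Lcn2 stretch is chr2:32387798-32387989 on the minus strand. The Spp1 stretch is chr5:104434861-104435110 on the plus strand, before the first of its 2 RefSeq start sites.
Havcr1: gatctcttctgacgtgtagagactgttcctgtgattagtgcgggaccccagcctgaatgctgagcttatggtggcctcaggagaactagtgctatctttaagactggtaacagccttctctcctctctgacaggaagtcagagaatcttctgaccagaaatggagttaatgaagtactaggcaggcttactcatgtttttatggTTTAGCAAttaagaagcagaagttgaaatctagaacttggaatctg
Lcn2: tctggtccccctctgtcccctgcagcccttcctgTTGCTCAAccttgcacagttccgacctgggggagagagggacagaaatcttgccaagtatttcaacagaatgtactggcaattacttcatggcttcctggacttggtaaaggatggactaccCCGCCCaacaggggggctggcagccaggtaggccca
Spp1: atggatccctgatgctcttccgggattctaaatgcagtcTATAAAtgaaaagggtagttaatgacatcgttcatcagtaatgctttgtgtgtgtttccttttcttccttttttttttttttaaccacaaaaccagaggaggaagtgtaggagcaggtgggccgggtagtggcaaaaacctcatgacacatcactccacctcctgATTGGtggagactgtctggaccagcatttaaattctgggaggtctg
The capitals are TTTAGCAA in Havcr1, which matches the C/EBP letters TTNNGNAA, TTGCTCAA in Lcn2, which matches them on the other strand, CCGCCC in Lcn2, which matches the GC box GGGCGG on the other strand, and TATAAA and ATTGG in Spp1, which match the TATA box and, on the other strand, the CCAAT box. Both strands were searched, over the 250 bases before each start site only. In these 250 bases, 36.8% of all 32851 promoter windows held TTNNGNAA, 32.7% held GGGCGG, 12.4% held TATAAA and 33.8% held CCAAT. The AP-1 letters TGANTCA (6.75% of windows), the STAT letters TTCNNNGAA (7.02%) and the NF-kappaB motif (7.25%) had 0 matches in the 250 bases searched of the 6 windows of these 3 genes. A match or its absence describes the letters only.

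Expression was deposited as FPKM, which counts fragments relative to transcript length and library size, so that levels of different genes can be set beside each other. A kidney's FPKM summed to between 512453 and 554036, and between 16498 and 16904 genes were above 0. Read counts are not used here, so the counting error of a value is unknown and errors are the SD over 3 mice. Changes are log2 fold changes of quantile-normalized log2(FPKM + 1) from limma, with its SE, and p-values carry the Benjamini-Hochberg adjustment over the 18188 genes. Genes that changed by more than 1 on the log2 scale in either direction, at an adjusted p under 0.05, were called differentially expressed genes (DEGs). The pseudocount of 1 FPKM makes the log2 changes of low genes such as Vcam1 smaller than the ratio of their FPKM. The replicate 3 kidneys of 0 and 16 min stood apart from their groups in several members, and results that rest on them are given with and without them.

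In 0 min kidneys the 5 genes together took between 0.185% and 0.372% of all FPKM, and in 30 min kidneys between 3.90% and 5.26%. Most of this was Spp1, which alone made up 3.38% of the FPKM at 30 min on average. Havcr1, Lcn2, Clu and Spp1 were DEGs with higher expression at all 8 ischemia times, while Vcam1 was a DEG at 28 min only. In a fit of only the 0 and 16 min kidneys the 16 min calls of all 4 were lost (limma adjusted p from 0.11 to 0.22). For these 4 genes all 28 min kidneys lay above all 26 min kidneys, as did 20.0% of all tested genes. In the fit of all 27 kidneys limma called no member over this step. Among all tested genes, DEGs with higher expression made up 1.28%, 1.97%, 1.55%, 2.09%, 1.97%, 2.16%, 4.27% and 5.14% in order of ischemia time from 16 to 30 min, so that the 4 of 5 members called after 16 min compare with 1.28% of genes. An unadjusted p under 0.05 was found for 31.9%, 38.1%, 35.2%, 39.2%, 38.4%, 39.8%, 53.2% and 56.7% of genes in the same order. In whole kidney, fewer cells of a type and less RNA per cell cannot be told apart.

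**Figure D1:**
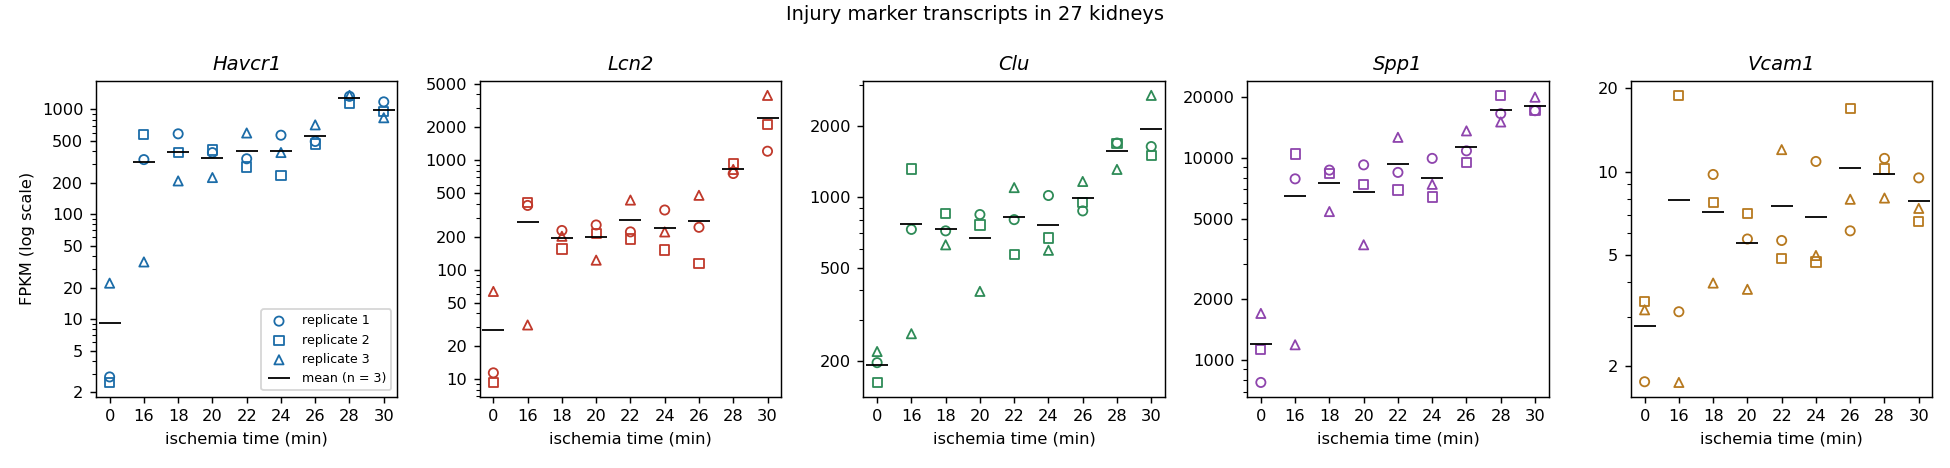
FPKM of Havcr1, Lcn2, Clu, Spp1 and Vcam1 in each of 27 kidneys (y axes, log scales that differ between genes) by ischemia time in min (x axes), with symbols for replicates, which are different mice, and black bars for the mean of 3. Replicate 3 at 16 min lies far below the other 16 min kidneys for Havcr1, Lcn2, Clu and Spp1. The 28 and 30 min kidneys lie above all others for these 4 genes, except that Clu in 28 min replicate 3 (1309 FPKM) is just below 16 min replicate 2 (1314 FPKM).

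Havcr1 was low in the control kidneys and became one of the most abundant transcripts. The 0 min kidneys held 2.81, 2.49 and 22.0 FPKM, which placed the gene between rank 3634 and rank 10326 of all genes in a kidney. Replicate 3 was 8.84 times the lowest of the group. At 16 min the values were 332, 574 and 35.1 FPKM, a mean of 314 ± 270 (SD, n = 3) against 9.11 ± 11.2 at 0 min. All 3 lay above the 0 min kidneys, but replicate 3 was closer to the highest control than to its own group. The log2 fold change was 4.71 (SE 0.74, limma adjusted p = 3.3e-04), the largest increase of all 18188 genes at this time. With both replicate 3 kidneys of 0 and 16 min left out, an alternative chosen after the values were seen, the change was 6.75 (limma adjusted p = 1.8e-07), and in the fit of only these groups it was 4.69 (limma adjusted p = 0.11).

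From 18 to 26 min the 15 kidneys held between 208 and 711 FPKM of Havcr1, with a median of 389. The means were 394 ± 188, 340.3 ± 102, 405 ± 167, 396 ± 166 and 557 ± 134 (SD, n = 3) in order of time. These groups overlapped each other, except that every 26 min kidney lay above every 20 min kidney. At 28 min the values were 1331, 1129 and 1359 FPKM, a mean of 1273 ± 126 or 139.8 times the 0 min mean, and the gene ranked 19 to 30. At 30 min they were 1179, 950.1 and 831, a mean of 987 ± 177. Every 28 and 30 min kidney lay above every kidney clamped for a shorter time, and the 2 groups overlapped each other. Against 0 min, Havcr1 was higher by 7.55 on the log2 scale at 28 min (limma adjusted p = 1.1e-07) and by 7.06 at 30 min (limma adjusted p = 1.3e-07). Havcr1 also had the largest increase of all genes at 30 min.

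Lcn2 had its highest mean in the 30 min kidneys and Havcr1 in the 28 min kidneys, though limma called neither gene from 28 to 30 min. The 0 min kidneys held 11.5, 9.39 and 63.6 FPKM, and the 16 min kidneys 388, 410.3 and 31.4. Replicate 3 of the 16 min group lay below replicate 3 of the 0 min group, so that these groups overlapped, while the other 16 min kidneys lay far above the highest control. At 16 min the log2 fold change of Lcn2 was 2.99 (SE 0.78, limma adjusted p = 0.011). It did not pass without 0 min replicate 2 (2.52, limma adjusted p = 0.068), without 16 min replicate 1 (2.42, 0.067) or without 16 min replicate 2 (2.37, 0.080). Leaving out both replicate 3 kidneys gave 4.996 (limma adjusted p = 8.3e-06).

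The 15 kidneys from 18 to 26 min held between 115 and 480 FPKM of Lcn2, with no order by time. At 28 min the values were 759, 931 and 827 FPKM (839 ± 86.7, SD, n = 3), and at 30 min 1213, 2139 and 3921 (2424 ± 1377). The 28 min kidneys all lay above every shorter time and the 30 min kidneys all lay above the 28 min kidneys. Against 0 min its log2 fold change was 3.49 after 26 min, 5.16 after 28 min (limma adjusted p = 1.6e-05) and 6.30 after 30 min (limma adjusted p = 1.0e-06). At 30 min Lcn2 ranked 9 to 32 in a kidney, against 1365 to 6425 at 0 min.

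Clu started from a much higher level in control kidneys and rose by a smaller factor. The 0 min kidneys held 197, 162 and 220 FPKM (193 ± 28.9, SD, n = 3), the tightest control group of the 5 genes relative to its mean. At 16 min they held 728, 1314 and 262 FPKM, all above 0 min, with a log2 fold change of 1.75 (SE 0.41, limma adjusted p = 0.0055). The change was 2.51 without both replicate 3 kidneys (limma adjusted p = 9.4e-05) and 1.69 in the fit of only these groups (limma adjusted p = 0.16). From 18 to 26 min the means ran from 666 at 20 min to 994 at 26 min, and the groups overlapped except that every 26 min kidney lay above every 18 and 20 min kidney. At 28 min the values were 1696, 1683 and 1309 FPKM and at 30 min 1638, 1503 and 2704. The 30 min mean was 10.1 times the 0 min mean, and the groups of 28 and 30 min overlapped. Against 0 min, Clu was higher by 3.07 on the log2 scale at 28 min (limma adjusted p = 4.1e-06) and by 2.995 at 30 min (limma adjusted p = 3.6e-06).

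Spp1 was abundant in every group and reached the top of the expression table. The 0 min kidneys held 776, 1132 and 1705 FPKM and already ranked 15 to 64. At 16 min the values were 7903, 10483 and 1192 FPKM, so that replicate 3 lay within the control range and the other 16 min kidneys lay far above the highest control. The log2 fold change was 1.90 (SE 0.50, limma adjusted p = 0.012). It did not pass without 0 min replicate 1 (1.63, limma adjusted p = 0.055), without 16 min replicate 1 (1.45, 0.080) or without 16 min replicate 2 (1.44, 0.092), and it was 3.13 (limma adjusted p = 5.8e-06) without both replicate 3 kidneys.

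The 26 min kidneys held 10877, 9549 and 13653 FPKM of Spp1, the 28 min kidneys 16611, 20463 and 15114, and the 30 min kidneys 17182, 17223 and 20047. The 28 and 30 min kidneys overlapped each other and lay above all other kidneys. Spp1 was the gene with the highest FPKM in 3 kidneys, 28 min replicate 2 and 30 min replicates 1 and 3. The other kidneys were led by Kap, a kidney androgen-regulated protein, or Gpx3, a secreted glutathione peroxidase. Among the few highest genes quantile normalization sets a value by rank alone, so that the normalized changes of Spp1 at 18 and 24 min were identical (2.69). With quantile normalization the log2 fold change against 0 min was 3.56 for the 26 min, 4.07 for the 28 min (limma adjusted p = 1.7e-06) and 4.21 for the 30 min kidneys (limma adjusted p = 6.8e-07). Without it the changes were 2.69 and 2.77 for the 18 and 24 min kidneys, and 3.29, 3.91 and 3.98 for those of 26, 28 and 30 min.

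Vcam1 was low throughout and had the smallest changes of the 5 genes. The 0 min kidneys held 1.76, 3.42 and 3.19 FPKM, and the 16 min kidneys 3.14, 18.8 and 1.75. Replicate 2 at 16 min was the highest of all 27 kidneys, while the other 16 min kidneys lay within the control range or just below it. The log2 fold change at 16 min was 0.60 (SE 0.53, limma adjusted p = 0.49), and without 16 min replicate 2 it was -0.25 (limma adjusted p = 0.80). From 18 to 30 min every kidney lay above every control kidney, with values between 3.78 and 16.8 FPKM.

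At 26 min the Vcam1 values were 6.13, 16.8 and 7.96 FPKM (log2 fold change 1.36, limma adjusted p = 0.058). At 28 min they were 11.2, 10.2 and 8.04 (1.39, SE 0.53, limma adjusted p = 0.036) and at 30 min 9.50, 6.61 and 7.38 (1.11, limma adjusted p = 0.085). The 28 min call was lost without 0 min replicate 1 (limma adjusted p = 0.12), without 0 min replicate 3 (0.055), or without 28 min replicate 1 (0.093), 2 (0.076) or 3 (0.051). Under other settings Vcam1 was also called at 26 and 30 min, with a constant sum of FPKM in place of quantile normalization (1.65, limma adjusted p = 0.029, and 1.36, 0.049) and in fits of only the groups compared (1.37, 0.038, and 1.13, 0.0076). A level above the controls without overlap was common among all genes, at 20.6%, 29.0%, 26.4%, 29.9%, 29.4%, 29.1%, 35.5% and 33.3% of tested genes in order of ischemia time from 16 to 30 min.

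**Figure D2:**
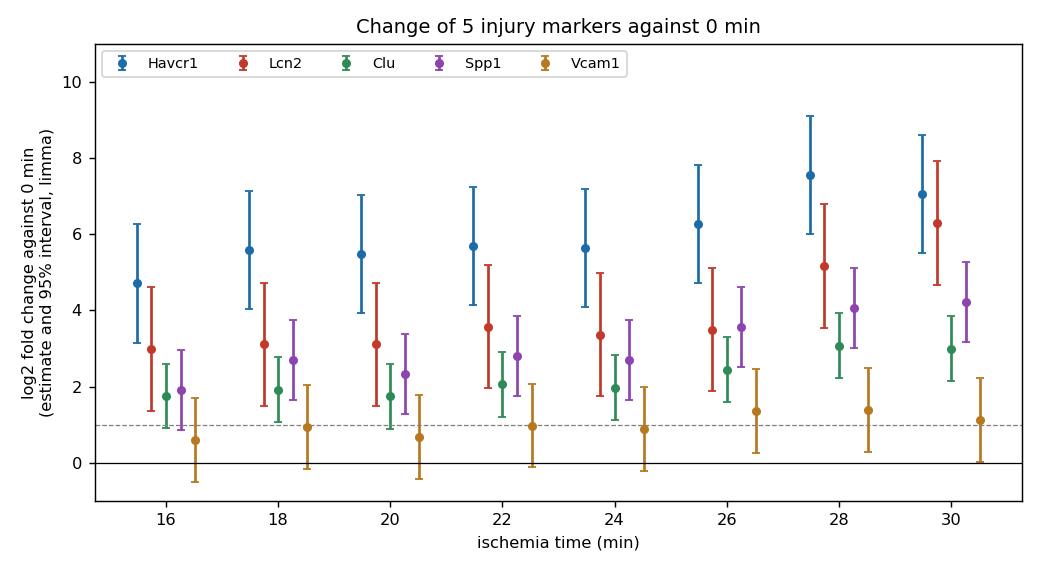
log2 fold change of the 5 genes against 0 min (y axis) by ischemia time (x axis, min), as limma estimates with 95% intervals. The solid line marks no change and the dashed line the log2 fold change of 1 that a DEG had to exceed. Havcr1 changed most at each time and Vcam1 least, and the intervals of Vcam1 reach below 1 throughout.

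In order of mean level, Havcr1 ran 0, 16, 20, 18, 24, 22, 26, 30 and 28 min, Lcn2 0, 18, 20, 24, 16, 26, 22, 28 and 30 min, and Clu 0, 20, 18, 24, 16, 22, 26, 28 and 30 min. Spp1 ran 0, 16, 20, 18, 24, 22, 26, 28 and 30 min and Vcam1 0, 20, 24, 18, 22, 30, 16, 28 and 26 min. Of the 40 pairs of neighbours in these orders, 9 did not overlap. These were the pair above 0 min for every gene but Spp1, the pair of 26 and 30 min for Havcr1, those of 22 and 28 min and of 28 and 30 min for Lcn2, and that of 26 and 28 min for Clu and for Spp1. Among all tested genes, a level higher without overlap had the shares given above against 0 min, and was found for 20.9% at 30 against 26 min, 25.8% at 28 against 22 min, 20.0% at 28 against 26 min and 11.9% at 30 against 28 min. With 3 kidneys against 3, an exact permutation test (two-sided) gives p = 0.1 for each of these 9 pairs, the smallest it can give.

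Steps between neighbouring ischemia times were tested next, since the study singles out the intervals from 0 to 16 min and from 26 to 28 min. Between neighbours from 16 to 26 min, limma called no member and none of the 18188 genes (0%) as a DEG in either direction. An unadjusted p under 0.05 was found for 0 of 5 members in each of these comparisons, and for 5.37%, 2.83%, 2.46%, 2.58% and 6.05% of all genes in order of time. From 26 to 28 min, 0.440% of genes were DEGs with higher expression, and 0 of 5 members were called by limma (1 of 5, Lcn2, at an unadjusted p under 0.05, as were 31.0% of all genes). The log2 fold change of Havcr1 was 1.28 (SE 0.74, limma adjusted p = 0.26), that of Lcn2 1.67 (SE 0.78, 0.15), that of Clu 0.63 (SE 0.41, 0.32) and that of Spp1 0.51 (SE 0.50, 0.55). For all 4 the 28 min kidneys lay above the 26 min kidneys without overlap, as did 20.0% of all tested genes. The change of Vcam1 was 0.03 (SE 0.53), with a 95% interval from -1.07 to 1.13. A fit of only the 26 and 28 min kidneys called Havcr1 (1.17, limma adjusted p = 0.012) and no other member. The SEs of the full fit come from a spread shared by all 9 groups, the replicate 3 kidneys of 0 and 16 min included. With both of these left out, the SE of Havcr1 at 28 against 0 min was 0.42, against 0.74 with all kidneys. The step from 26 to 28 min is not given without them.

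From 28 to 30 min, 0.401% of genes were DEGs with higher expression, and no member was called by limma, at an adjusted p or at an unadjusted p under 0.05, which 26.8% of all genes had. Lcn2 was higher by 1.14 (SE 0.78, limma adjusted p = 0.39) without overlap, as were 11.9% of genes. Havcr1 differed by -0.49, with a 95% interval from -2.04 to 1.06, and Spp1 by 0.14, from -0.91 to 1.19. The value of Clu was -0.08 and turned to 0.28 without quantile normalization.

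The difference between the steps was tested directly as the change from 26 to 28 min less the change from 0 to 16 min. It was -3.43 for Havcr1 (SE 1.05, limma adjusted p = 0.045), a smaller step at 26 to 28 min, and 4.52% of all genes were called in this direction. The call of Havcr1 was lost when any kidney of these 4 groups other than the replicate 3 kidneys of 0 and 16 min was left out, with limma adjusted p-values from 0.071 to 0.121. That call was also lost with a replicate block. The difference was -1.32 for Lcn2, -1.12 for Clu, -1.39 for Spp1 and -0.57 for Vcam1, and none of these passed. Without 16 min replicate 3, that of Clu was -1.78 (limma adjusted p = 0.013) and that of Spp1 -2.33 (0.0026). Without both replicate 3 kidneys, that of Lcn2 was -3.32 as well (0.0075).

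**Figure D3:**
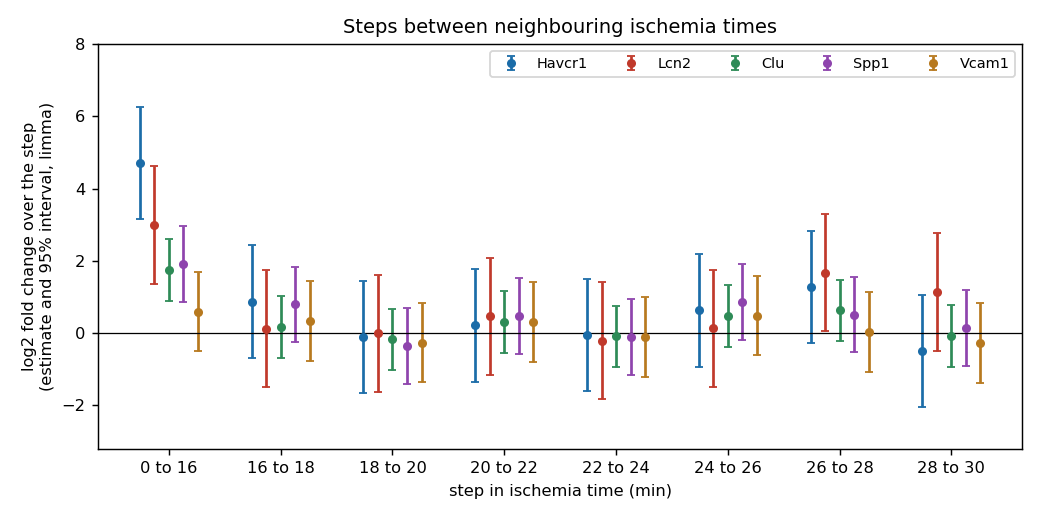
log2 fold change over each step between neighbouring ischemia times (x axis, min) for the 5 genes (y axis), as limma estimates with 95% intervals. The steps from 0 to 16 min lie above 0 for Havcr1, Lcn2, Clu and Spp1, the intervals of all other steps but that of Lcn2 from 26 to 28 min include 0, and no step after 16 min was called after adjustment.

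Within the range from 16 to 26 min a slope on ischemia time was fitted to 18 kidneys, and 0.0110% of genes were called with a rising slope, while 8.81% had an unadjusted p under 0.05. The slope of Spp1 was 0.13 log2 units per min (limma adjusted p = 0.45), that of Havcr1 0.12 (limma adjusted p = 0.59), and those of Clu, Vcam1 and Lcn2 0.06, 0.06 and 0.05. No member was called, and 1 of 5, Spp1, had an unadjusted p under 0.05. Without 16 min replicate 3, the lowest kidney of the range for Havcr1, Lcn2, Clu and Spp1, the slope of Spp1 was 0.07 and that of Havcr1 0.04.

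The levels of Havcr1 and Lcn2 were also set against each other, a comparison chosen after their values were seen, in which no test passed. The ratio of Lcn2 to Havcr1 FPKM was 4.09, 3.77 and 2.89 in the 0 min kidneys and 1.17, 0.714 and 0.896 in the 16 min kidneys. From 18 to 28 min it lay between 0.247 and 0.976 in all kidneys, and at 30 min it was 1.03, 2.25 and 4.72. The mean log2 ratio at 30 min was 1.75 above that at 28 min, and the 16 min kidneys differed from the 0 min kidneys by -1.97, in both cases without overlap (exact permutation test, two-sided, p = 0.1, the smallest possible, and 0.27 after adjustment over 8 tests of ratios). The ratio of Spp1 to Clu, tested in the same way, overlapped between groups in each of 4 comparisons.

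**Figure D4:**
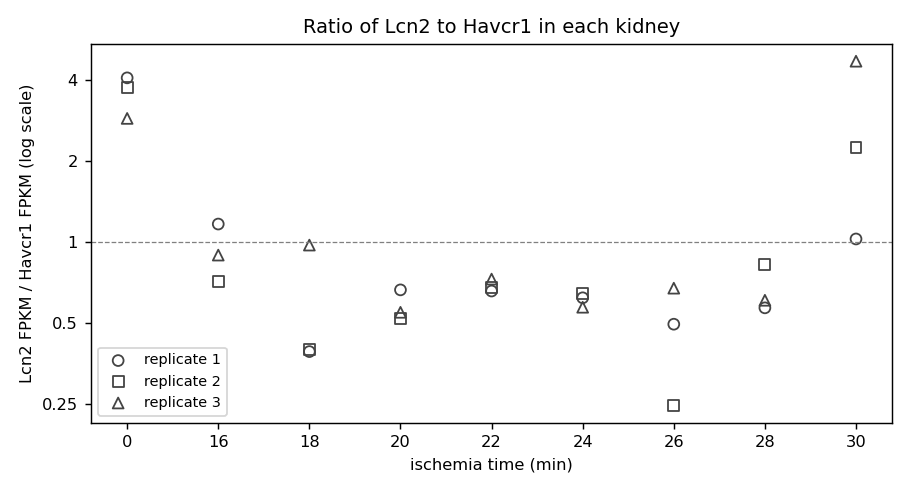
Ratio of Lcn2 FPKM to Havcr1 FPKM in each kidney (y axis, log scale) by ischemia time (x axis, min), with symbols for replicates, which are different mice. The dashed line marks equal FPKM. The ratio is between 2.89 and 4.09 at 0 min, below 1 in every kidney from 18 to 28 min, and above 1 at 30 min.

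Among kidneys clamped for 16 to 26 min, those with a high level of one member tended to have high levels of the others. Over the 18 kidneys from 16 to 26 min, 10 pairs of members were correlated on quantile-normalized log2(FPKM + 1), with permutation p-values adjusted over the 10 pairs. Havcr1 and Clu had a Pearson r of 0.88 (permutation test, adjusted p = 0.0001) and a Spearman rho of 0.83 (0.0001). Havcr1 and Lcn2 had an r of 0.85 (0.00044) and a rho of 0.68 (0.0052), and Clu and Vcam1 an r of 0.83 (0.0001) and a rho of 0.83 (0.0001). Havcr1 and Vcam1 had an r of 0.76 (0.00013) and a rho of 0.89 (0.0001). The lowest r was that of Lcn2 and Vcam1, at 0.50 (permutation test, adjusted p = 0.032), and the lowest rho that of Lcn2 and Spp1, at 0.42 (0.085). For the pairs with Spp1 the scaling decided the value, since quantile normalization tied Spp1 in many of these kidneys. With and without quantile normalization the r of Havcr1 with Spp1 was 0.83 and 0.97, that of Clu with Spp1 0.77 and 0.93, that of Lcn2 with Spp1 0.62 and 0.87 and that of Spp1 with Vcam1 0.62 and 0.72.

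With the 2 kidneys farthest from the median left out, the r of Havcr1 with Clu was 0.76 (permutation test, adjusted p = 0.0015), with Vcam1 0.79 (0.0015) and with Lcn2 0.54 (0.046). The r of Lcn2 with Vcam1 was then 0.24, so that this relation rests on those kidneys, and it was 0.22 without quantile normalization. The r of Lcn2 with Spp1 was 0.08 and that of Clu with Spp1 0.31 in the quantile-normalized values, against 0.60 (permutation test, adjusted p = 0.015) and 0.85 (0.00015) without quantile normalization. Without 16 min replicate 3 alone, the r of Havcr1 with Spp1 was 0.50 (permutation test, adjusted p = 0.056) in the quantile-normalized values and 0.89 (5e-05) without that step. In the quantile-normalized values the r of Havcr1 was then 0.79 with Clu, 0.73 with Vcam1 and 0.63 with Lcn2. That of Lcn2 with Spp1 was 0.07, against 0.67 without quantile normalization. Centred on the mean of each ischemia time, the r of Havcr1 was 0.90 with Lcn2, 0.89 with Clu and 0.74 with Vcam1.

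**Figure D5:**
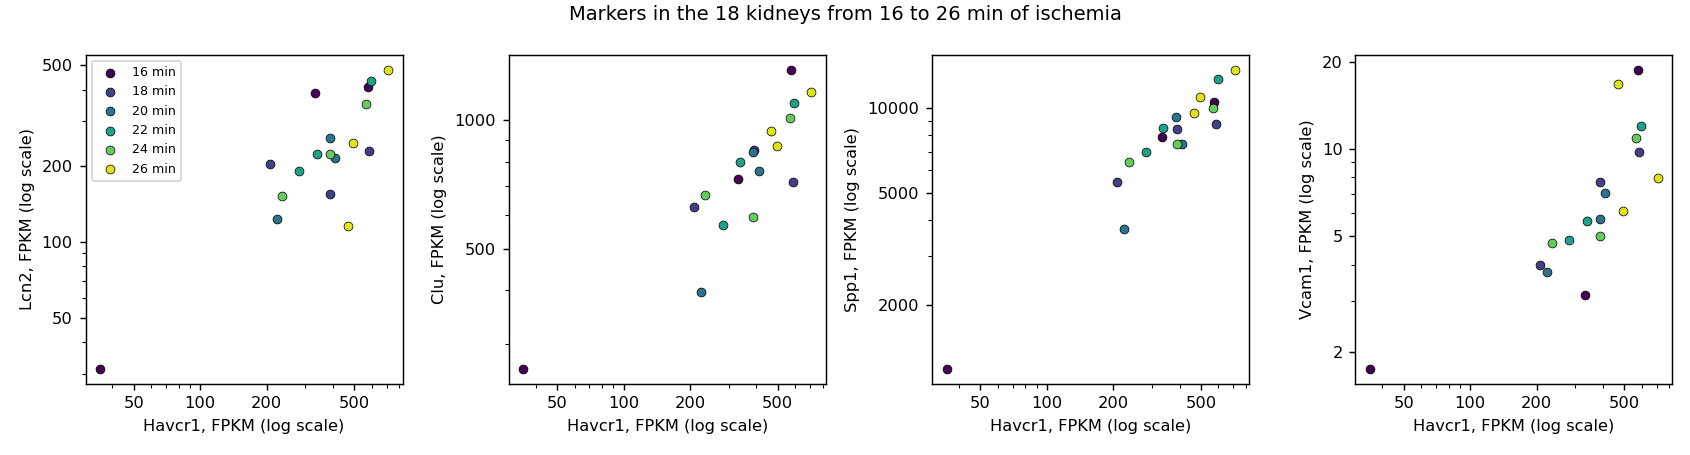
FPKM of Lcn2, Clu, Spp1 and Vcam1 (y axes, log scales) against FPKM of Havcr1 (x axes, log scale) in the 18 kidneys clamped for 16 to 26 min, with 1 point per kidney coloured by ischemia time. The lowest point of each panel is 16 min replicate 3, and colours are mixed along each cloud.

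The genes whose levels followed each member most closely over all 27 kidneys were listed by Pearson r, as a description. Havcr1 was followed by Smpdl3b (0.97), a lipid-modifying phosphodiesterase of the cell surface, Rpsa (0.97), a ribosomal protein with many processed pseudogenes, and Tubb5 (0.97), a beta-tubulin. The mean of Smpdl3b was 0.533 ± 0.189 FPKM (SD, n = 3) in the 0 min group, 7.11 ± 5.48 after 16 min, 12.3 ± 1.64 after 26 min and 23.1 ± 3.24 after 28 min. Lcn2 was followed by Chrnb1 (0.98), a subunit of the muscle acetylcholine receptor, Arpc1b (0.97), a subunit of the actin-nucleating Arp2/3 complex, and Akr1b8 (0.97), an aldo-keto reductase. Of these, Akr1b8 rose by 1.48 (SE 0.44, limma adjusted p = 0.024) and Chrnb1 by 1.01 (SE 0.30, 0.023) from 26 to 28 min.

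Clu was followed by Tagln2 (0.97), an actin-binding protein, Gnai2 (0.97), a G protein subunit, and Pea15a (0.97), a phosphoprotein of death-receptor and ERK signaling. Spp1 was followed by Dap (0.96), Rps16 (0.95), another ribosomal protein, and Plp2 (0.94), a membrane protein. These r values are from quantile-normalized values, in which Spp1 was tied in many kidneys, and the ranking was not repeated without that step. Vcam1 was followed less closely, by Il1rn (0.87), the interleukin-1 receptor antagonist, Nfkb2 (0.85), an NF-kappaB subunit, and Il1f6 (0.85), a cytokine of the interleukin-1 family. Il1rn was between 0 and 0.51 FPKM in the 0 min kidneys and between 2.92 and 4.43 in the 28 min kidneys, and like Vcam1 it was highest in 16 min replicate 2, at 6.67.

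Of 35 other genes of tubular injury and dedifferentiation, many rose at the times when the members did. At 16 min 15 of 35 were DEGs with higher expression, 1 was lower and 19 were not called, with a median log2 fold change of 0.53 against 0.00 over all genes. Without 16 min replicate 2 the number called was 7, and in the fit of only these groups 1. The number higher was 16 after 26 min, 24 after 28 min and 25 after 30 min (median 2.79), with 1 lower each time. Among all genes, DEGs with higher expression were 1.28%, 2.16%, 4.27% and 5.14% at these 4 times, and those with lower expression 0.979%, 1.61%, 4.21% and 5.59%. From 26 to 28 min 9 of 35 rose and 0 fell, against 0.440% of all genes called higher. Without 26 min replicate 2 the number called was 4. Krt20, an epithelial keratin, was at 0.553 ± 0.484 FPKM (SD, n = 3) in the 0 min group, 15.7 ± 3.88 after 26 min, 80.9 ± 22.5 after 28 min and 163 ± 63.1 after 30 min, and rose by 2.30 from 26 to 28 min (SE 0.55, limma adjusted p = 0.0059). S100a6, a calcium-binding protein, rose by 3.003 at 16 min (limma adjusted p = 2.4e-04) and by 1.52 from 26 to 28 min (SE 0.46, limma adjusted p = 0.024). B2m, the light chain of class I MHC, was the gene that fell. It held between 1332 and 2127 FPKM in the 0 min kidneys and between 255 and 376 in the 16 min kidneys, a log2 fold change of -2.74 (limma adjusted p = 1.3e-08).

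The 23 receptors, ligands, partners and sheddases of the members were mostly not called. At 16 min 1 of 23 was higher and 22 were not called, against 1.28% of all genes called higher. At 30 min 8 were higher, 1 was lower and 14 were not called, with a median of 0.51. Of all genes, 5.14% were higher and 5.59% lower at 30 min. The number called at 16 min was 0 without replicate 2 or in the fit of only these groups, 2 without 16 min replicate 3, 3 with a constant sum, and 4 with a pseudocount of 0.1 FPKM or without both replicate 3 kidneys. Itga5, an integrin chain that binds osteopontin and fibronectin, was at 2.13 ± 0.427 FPKM (SD, n = 3) at 0 min and 21.5 ± 9.80 at 30 min (log2 fold change 2.64, limma adjusted p = 1.2e-08). Cd44, the hyaluronan receptor that also binds osteopontin and stands in the injury list too, rose by 2.08 (limma adjusted p = 8.3e-06), from 0.403 ± 0.122 FPKM to 5.34 ± 0.718. Lrp2 (megalin), the endocytic receptor of the proximal tubule that takes up filtered Lcn2, fell from 161 ± 7.18 FPKM to 22.6 ± 8.73 (log2 fold change -2.85, limma adjusted p = 1.3e-09). Adhesion molecules of endothelium other than Vcam1 had 0 of 8 genes called by limma at any ischemia time, and 1 at 30 min without 30 min replicate 1. At 30 min 3 of the 8 had an unadjusted p under 0.05, against 56.7% of all genes, and their median log2 fold change was 0.06. These 3 were Pecam1 (0.87, limma adjusted p = 1.8e-05), Selp (0.20, 0.0041) and Sele (0.18, 0.0035), whose changes were under the fold of a DEG.

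Among 24 transcription factors and inhibitors of the NF-kappaB, STAT3, C/EBP and AP-1 pathways, the number higher was 1 after 16 min, 6 after 26 min, 11 after 28 min and 15 after 30 min, and none was lower at these times. Of all genes, 1.28%, 2.16%, 4.27% and 5.14% were called higher at these times. The shares called lower were 0.979%, 1.61%, 4.21% and 5.59%. At 16 min the number called was 0 without replicate 2 or in the fit of only these groups, 2 without 0 min replicate 3 or without quantile normalization, 3 with a pseudocount of 0.1 FPKM, 4 with a constant sum, 6 without 16 min replicate 3 and 7 without both replicate 3 kidneys. At 26 min it was 3 without 26 min replicate 3. Fosl1, an AP-1 subunit, was at 1.17 ± 0.586 FPKM (SD, n = 3) after 26 min, 11.99 ± 1.26 after 28 min and 19.3 ± 4.32 after 30 min, and rose by 2.58 from 26 to 28 min (SE 0.37, limma adjusted p = 1.2e-04). Fos, another AP-1 subunit, rose by 2.65 at 30 min against 0 min (limma adjusted p = 6.4e-05).

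Some markers of cell types changed at 16 min. More of those of the proximal tubule and the thick ascending limb changed at 28 and 30 min. The summed FPKM of 10 proximal tubule genes was between 4623 and 5035 in the 0 min kidneys, 3671 and 5717 in the 16 min kidneys, and 2863 and 5097 in the 26 min kidneys. It was between 1608 and 1886 in the 28 min kidneys and 990.4 and 1154 in the 30 min kidneys. The number of these genes called lower was 1 after 16 min, 1 after 26 min, 6 after 28 min and 9 after 30 min. Of all genes, 0.979%, 1.61%, 4.21% and 5.59% were called lower at these times. The rise of Havcr1 at 16 min came with a proximal tubule sum that overlapped the controls. The levels at 28 and 30 min came with a lower sum. Single genes of the sum differed at 16 min. Aqp1 was at 185 to 293 FPKM against 471 to 510 at 0 min. Lrp2 was at 81.7 to 137 against 156 to 169, and Cubn at 30.5 to 49.8 against 51.5 to 61.4. Slc22a6 was higher, at 270 to 293 against 245 to 259, and the other genes of the list overlapped the controls. The thick ascending limb, which makes Umod, had 0 of 4 genes called at 16 min and 3 lower at 28 and at 30 min. Its sum was between 1681 and 1841 FPKM in the 0 min kidneys, 554 and 817 in the 28 min kidneys and 529 and 2254 in the 30 min kidneys. In the fibroblast list 2 of 6, the collagen genes Col1a1 and Col1a2, were higher at 16 min, and the sum was between 37.6 and 41.4 FPKM in the 0 min kidneys and 73.2 and 99.9 in the 16 min kidneys. At 28 and at 30 min these 2 were higher and Dcn, a collagen-binding proteoglycan, was lower. Of all genes, 1.28%, 4.27% and 5.14% were called higher at 16, 28 and 30 min. The part of these cell types in the members' levels was not tested.

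Neutrophils also make Lcn2. The summed FPKM of 12 neutrophil genes was between 5.49 and 12.1 in the 0 min kidneys, 5.21 and 12.6 in the 16 min kidneys, 15.7 and 19.4 in the 28 min kidneys and 23.5 and 31.6 in the 30 min kidneys. At 16 min 0 of 11 tested neutrophil genes were called by limma (1 of 11 at an unadjusted p under 0.05, against 31.9% of all genes). Ly6g, Mpo, Mmp8, Ngp, Camp and Ltf were at most 0.88 FPKM in any kidney. With a pseudocount of 1 FPKM such genes could hardly reach the fold of a DEG, so the counts of calls say little about them. At 30 min 2 of 11 were called higher, against 5.14% of all genes. These were S100a8 (log2 fold change 1.35, limma adjusted p = 0.0045) and S100a9 (1.39, 0.0012). The granule genes Mpo, Elane and Camp were at or near 0, with Mpo at 0 in 24 kidneys, Elane in 26 and Camp in 23, and the highest value of any of these 3 was 0.11 FPKM. At 30 min Csf3r (2.29 to 2.81 FPKM against 0.60 to 0.85 at 0 min) and Mmp8 (0.23 to 0.88 against 0 to 0.03) lay above the controls without overlap. So did Cxcr2 and Ltf, and 33.3% of all tested genes. Ly6g, Ngp, Camp, Mpo and Retnlg overlapped the controls. The neutrophil part in the Lcn2 level at 30 min was not tested.

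Macrophages can make Spp1, and their 12 genes summed to between 84.3 and 95.9 FPKM in the 0 min kidneys, 86.5 and 158 in the 16 min kidneys and 87.6 and 169 in the 30 min kidneys. At 16 min 2 of 12, Cd68 and Lyz2, were called higher and none lower, with a median log2 fold change of -0.06. At 30 min 3 were higher, these 2 and Itgam, and 2 were lower, Csf1r, the receptor that macrophages need, and Ly6c2, a monocyte surface protein, with a median of -0.27. Of all genes, 1.28% were called higher and 0.979% lower at 16 min, and 5.14% higher and 5.59% lower at 30 min. Csf1r was between 13.7 and 18.3 FPKM in the 0 min kidneys and at most 7 in the 30 min kidneys. The summed FPKM of the 10 genes of endothelium, a source of Vcam1, was between 120.1 and 145 in the 0 min kidneys, 126 and 150.3 in the 28 min kidneys, when Vcam1 was called, and 162 and 255 in the 30 min kidneys. None of the 10 was called by limma at any time against 0 min, while 2 or 3 of the 10 had an unadjusted p under 0.05 from 16 to 28 min and 6 at 30 min, against 31.9% to 56.7% of all genes. The part of either cell type in these levels was not tested.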

How the data were processed

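RNA-Seq of 27 left kidneys was done by the authors on the DNBSEQ platform. The values deposited by the authors are FPKM per gene symbol and kidney. The submitters' processing notes name Bowtie2, RSEM, DESeq2 and GRCm38.p6, with versions not given in the sources used here. The quantile normalization and log2 steps of the paper's methods are not in these values and were done here. Read depth is unknown, so precision rests on 3 mice per group. No 2 of the 27 columns were identical over 351 pairs.

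Values were taken as log2(FPKM + 1), quantile normalized and fitted in limma 3.58.1 (R 4.3.3), each ischemia time having its own mean, on the 18188 genes that at least 3 kidneys held above 0 FPKM. The slope and the difference between steps were called at an adjusted p under 0.05 at any fold. The fits of the step from 26 to 28 min, of the slope and of the difference between steps were tested on simulated data. Correlations used 100000 permutations (SciPy 1.17.1). Positions are from GENCODE vM21, promoter windows from RefSeq.

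The members and gene lists were chosen with earlier results of these data known. Named were all members, the 3 genes most correlated with each among those of at least 1 FPKM on average, and the 2 genes of each list that rose and the 2 that fell most at 30 against 0 min among DEGs. Other genes given singly were chosen after their values were seen. Other settings were 0.1 FPKM as pseudocount, omission of quantile normalization, a constant sum of FPKM in its place, at least 1 FPKM in at least 3 kidneys, eBayes with a trend, only the groups compared, a replicate block, each kidney left out in turn and, added after seeing the data, both replicate 3 kidneys of 0 and 16 min left out, and, for correlations, kidneys left out without quantile normalization. The other assays of the study were not analysed here.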

Additional observations from a re-analysis of the deposited data

How the results depend on the processing

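With 3 mice per group and no read counts, small differences between neighbouring times may have been missed, and the smallest detectable size was not tested. The fitted spread is shared by all 9 groups. The number of members called against 0 min was 4 or 5 under each setting at 18 to 30 min. At 16 min it was 4, between 2 and 4 with single kidneys left out, and 0 in a fit of only the 0 and 16 min kidneys, where Havcr1 was 4.69, Lcn2 2.98, Clu 1.69 and Spp1 1.67 with limma adjusted p-values from 0.11 to 0.22. In the fit of only the 26 and 28 min kidneys 1 member was called (Havcr1, 1.17). The cause of these differences was not tested, beyond the fewer samples in such fits.

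With single kidneys left out, the log2 fold change at 16 min ran from 3.95 to 5.89 for Havcr1, 2.37 to 4.18 for Lcn2, 1.20 to 2.41 for Clu, 1.44 to 2.83 for Spp1 and -0.25 to 1.16 for Vcam1. Between 26 and 28 min it ran from 1.17 to 1.51 for Havcr1, 1.15 to 2.20 for Lcn2, 0.51 to 0.74 for Clu, 0.14 to 0.71 for Spp1 and -0.25 to 0.41 for Vcam1, and between 28 and 30 min from -0.21 to 0.049 for Clu. Clu was at 0.28 between 28 and 30 min without quantile normalization and at 0.29 with a constant sum.

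The difference between the steps had 0 to 3 members called with single kidneys left out, and 4 without both replicate 3 kidneys (Lcn2 -3.32, Clu -1.88, Spp1 -2.65). It ran from -4.61 to -2.67 for Havcr1, -2.51 to -0.70 for Lcn2, -1.78 to -0.57 for Clu, -2.33 to -0.92 for Spp1 and -1.13 to 0.27 for Vcam1. Slopes of Lcn2 ran from -0.016 to 0.089, and it was -0.016 without both kidneys. Between 16 and 18 min the log2 fold change ran from -0.30 to 1.63 for Havcr1, -1.07 to 0.74 for Lcn2, -0.48 to 0.72 for Clu, -0.12 to 1.25 for Spp1 and -0.22 to 1.18 for Vcam1, and without both replicate 3 kidneys it was -0.30 for Havcr1, -1.08 for Lcn2, -0.48 for Clu, -0.11 for Spp1 and -0.22 for Vcam1. From 18 to 20 min changes ran from -0.51 to 0.24 for Havcr1, -0.23 to 0.30 for Lcn2 and -0.38 to 0.16 for Clu, and from 20 to 22 min from -0.066 to 0.43 for Havcr1, -0.017 to 0.54 for Clu and -0.045 to 0.53 for Vcam1. From 22 to 24 min they ran from -0.37 to 0.30 for Havcr1, -0.55 to 0.14 for Lcn2, -0.35 to 0.13 for Clu and -0.44 to 0.25 for Vcam1, and from 24 to 26 min from -0.40 to 0.66 for Lcn2. Vcam1 passed at 26 min with a constant sum (1.65), without quantile normalization (1.49), with genes of at least 1 FPKM (1.36), with only the groups compared (1.37) or without 26 min replicate 1 (1.64), and at 30 min with a constant sum (1.36) or only the groups compared (1.13).

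The replicate numbers do not pair the kidneys: same-numbered kidneys correlated at 0.0087 on average over 108 pairs, with 25 above 0.1. With a replicate block the difference between steps of Havcr1 was -3.43 with a limma adjusted p of 0.058, so that 0 members were called.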
